A study of Rattus norvegicus with 8 samples.

Results

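The messages of 5 genes whose proteins make, cut or receive angiotensin and endothelin peptides were followed in rat whole blood: Ace, Lnpep, Ece1, Atp6ap2 and Agtrap. They were taken by gene name from the 17446 genes of the count table, and all 5 were found there. The blood came from male wild-type Wistar rats of 12 to 14 weeks of age in 2 models of hypertension. In the AngII model, human angiotensin II was infused at 0.4 mg/kg/day from subcutaneous osmotic minipumps. In the DOCA–HS model, deoxycorticosterone acetate was injected weekly at 100 mg/kg and the drinking water held 0.9% NaCl and 1% KCl. Chios mastic gum (CMG), the resin of Pistacia lentiscus var. Chia, was then given at 220 mg/kg by daily gavage for 4 weeks. There were 2 libraries for each model before CMG and 2 after it, 8 in all, drawn at weeks 1 and 5 of the AngII model and at weeks 3 and 7 of the DOCA–HS model. Libraries of rats that received the model without CMG were not analysed here, so CMG cannot be told apart from 4 further weeks of the model. The minipumps were of a type made for 4 weeks, and the later AngII blood was drawn at week 5. The models also differed in the week of sampling, which cannot be told apart from the model.

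Angiotensin-converting enzyme, the product of Ace, removes a dipeptide from angiotensin I to give angiotensin II and also inactivates bradykinin, and in the body it sits mainly on endothelium, above all that of the lung. Angiotensinogen, the precursor of the angiotensins, comes chiefly from the liver. Lnpep encodes the insulin-regulated aminopeptidase, which binds angiotensin IV and cleaves oxytocin and vasopressin. Ece1 encodes endothelin-converting enzyme 1, which turns big endothelin-1 into the vasoconstrictor endothelin-1. The product of Atp6ap2 is a membrane receptor of the angiotensin system and an accessory protein of the vacuolar proton pump (V-ATPase). Agtrap encodes a membrane protein that binds the tail of the angiotensin type 1 receptor and promotes its internalization.

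The promoters of all 5 genes were found in RefSeq (GRCr8 assembly), and 4 are shown as the 250 bases upstream of the start. This sets the gene without a count beside the 3 tested in the main analysis. Capitals mark matches, on either strand, to the GC box with the letters GGGCGG, to the CCAAT box, to the E-box with the letters CACGTG and to the TATA box, searched for as TATAA, and neighbouring or overlapping matches appear as 1 capital run.
Ace, chr10:91409879-91410128, plus strand: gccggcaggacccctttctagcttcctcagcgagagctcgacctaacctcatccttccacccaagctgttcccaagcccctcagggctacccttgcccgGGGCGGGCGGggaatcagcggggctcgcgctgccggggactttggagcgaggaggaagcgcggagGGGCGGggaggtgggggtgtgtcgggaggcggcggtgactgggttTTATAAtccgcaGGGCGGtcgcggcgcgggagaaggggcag
Ece1, chr5:155360781-155361030, plus strand: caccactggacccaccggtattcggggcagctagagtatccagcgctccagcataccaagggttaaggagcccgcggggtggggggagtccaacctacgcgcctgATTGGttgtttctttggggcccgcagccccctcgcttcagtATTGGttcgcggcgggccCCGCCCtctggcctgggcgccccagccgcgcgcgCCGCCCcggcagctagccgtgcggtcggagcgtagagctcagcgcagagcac
Atp6ap2, chrX:12883671-12883920, minus strand: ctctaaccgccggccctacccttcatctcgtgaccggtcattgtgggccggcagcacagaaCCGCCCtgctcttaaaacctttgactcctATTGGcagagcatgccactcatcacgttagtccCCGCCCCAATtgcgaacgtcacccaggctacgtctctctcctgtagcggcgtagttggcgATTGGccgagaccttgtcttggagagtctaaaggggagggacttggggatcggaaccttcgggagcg
Agtrap, chr5:163802175-163802424, minus strand: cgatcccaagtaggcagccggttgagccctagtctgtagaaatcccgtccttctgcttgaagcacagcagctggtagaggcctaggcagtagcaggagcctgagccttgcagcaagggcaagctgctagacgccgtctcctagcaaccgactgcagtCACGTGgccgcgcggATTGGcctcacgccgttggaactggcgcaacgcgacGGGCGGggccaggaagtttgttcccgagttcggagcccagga
A GC box was present in all 5 promoters, Lnpep (chr1:67027611-67027860, minus strand) included, and in 30.5% of the 33469 rat promoters of the same length. CCAAT was matched 3 times upstream of Atp6ap2, 2 times upstream of Ece1 and 1 time upstream of Agtrap, and 34% of all promoters held it. In the Atp6ap2 promoter, 1 CCAAT match overlaps a GC box. The E-box was matched in Agtrap alone among the 5, against 5.59% of all promoters, and the TATA box in Ace alone, against 24%. The matches describe the letters of these windows and were not compared with the expression values.

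The libraries held 4149104 to 13205565 counts, of which 61.9% to 84.3% fell on the 2 hemoglobin genes Hbb and LOC100134871. Outside hemoglobin, 651764 to 4490083 counts remained. DOCA–HS after replicate 2 stood apart from the rest, with the lowest total, the highest hemoglobin share and 2686 genes at 10 or more counts, against 6097 to 8280 in the other 7 libraries. Its scaling factor by the trimmed mean of M-values (TMM), which sets the level of all genes in a library, was 0.343, and the other 7 factors lay between 0.777 and 1.88. Leukocyte markers were counted in every library. Markers of endothelium, which makes Ace and Ece1 in vessels, summed to 6 to 89 counts per library, and heart muscle markers to 0 or 1 count, with Myh6 and Myl7 at 0 throughout.

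No read was counted on Ace in any library. With 0 of 21778722 counts outside hemoglobin over the 8 libraries, a level of up to 0.138 CPM (read counts scaled to a common library size) outside hemoglobin would be allowed (3 counts, counting error only). In single libraries the limit lay between 0.668 and 4.60 CPM outside hemoglobin. Ace messenger RNA was therefore not detectable at this depth before or after CMG in either model, and no fold change can be given.

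Lnpep was at the edge of detection. Its counts were 2 and 1 in the AngII libraries before CMG, 0 and 1 after, 3 and 1 in the DOCA–HS libraries before CMG and 1 and 0 after. The 9 counts, found in 6 libraries, corresponded to 0.413 CPM outside hemoglobin (95% Poisson interval 0.189 to 0.784). No library held more than 3 counts, so Lnpep was not tested in the main analysis and differences between the groups were not detectable at this depth. In the alternative with no filter on low counts Lnpep was tested, and it did not reach an adjusted p under 0.05 in any comparison.

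Ece1 was counted in every library, with 442 reads in all. The normalized level, in CPM with the library total times its TMM factor as the library size, was 4.79 and 4.89 CPM in the AngII libraries before CMG and 4.98 and 4.88 CPM in the DOCA–HS libraries before CMG. After CMG the AngII libraries held 5.43 and 6.87 CPM, and the DOCA–HS libraries 6.76 and 0.703 CPM. The 4 libraries before CMG thus lay between 4.79 and 4.98 CPM, 3 of the 4 libraries after CMG lay above them, and DOCA–HS after replicate 2 lay far below on 1 read, with a 95% Poisson interval of 0.0178 to 3.91 CPM. Group means were 4.84 ± 0.0735 CPM before and 6.15 ± 1.02 CPM after for AngII, and 4.93 ± 0.0699 CPM before and 3.73 ± 4.28 CPM after for DOCA–HS (SD, n = 2 each).

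Atp6ap2 was counted 370 times. Its level was 5.34 and 2.53 CPM in the AngII model before CMG, 4.32 and 4.06 CPM after, 4.59 and 5.20 CPM in the DOCA–HS model before CMG and 5.45 and 1.41 CPM after. The AngII pair before CMG spanned the pair after it, and the low DOCA–HS value rested on 2 reads (0.170 to 5.08 CPM). The means were 3.94 ± 1.99 and 4.19 ± 0.177 CPM before and after CMG for AngII, and 4.90 ± 0.429 and 3.43 ± 2.86 CPM for DOCA–HS (SD, n = 2 each). Apart from that library the 7 values covered a 2.15-fold range.

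Agtrap was counted 145 times, with 9 to 36 reads per library. Its level was 1.33 and 1.86 CPM in the AngII model before CMG, 1.92 and 1.55 CPM after, 1.99 and 2.02 CPM in the DOCA–HS model before CMG and 1.54 and 6.32 CPM after. The last value, from 9 reads in DOCA–HS after replicate 2 (95% Poisson interval from 2.89 CPM), lay above all the others, which covered a 1.51-fold range. It depended on the scaling, since with total counts and no TMM factor the same 9 reads gave 2.17 CPM and the other 7 libraries 1.29 to 3.74 CPM. Scaled to counts outside hemoglobin, also with no TMM factor, the 9 reads gave 13.8 CPM. That was again above the other 7, at 3.79 to 9.82 CPM. Group means in TMM-scaled CPM were 1.60 ± 0.369 and 1.74 ± 0.259 for AngII, and 2.00 ± 0.0171 and 3.93 ± 3.39 for DOCA–HS (before and after, SD, n = 2 each).

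**Figure D1:**
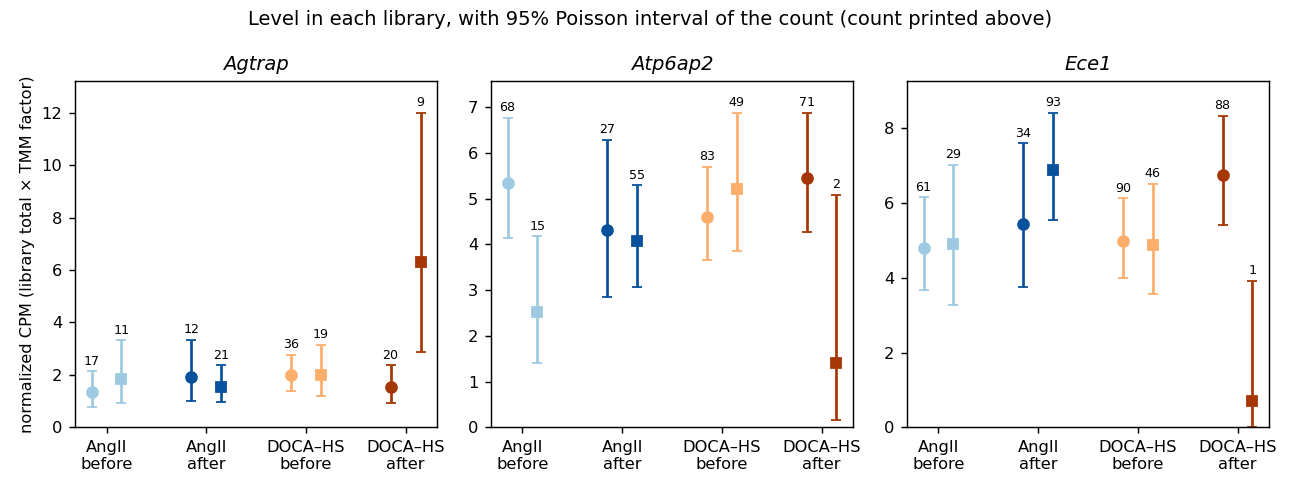
Normalized CPM (y axis, linear, starting at 0) of Agtrap, Atp6ap2 and Ece1 in each library, by model and time on the x axis, with circles for replicate 1, squares for replicate 2, bars for the 95% Poisson interval of the count and the count above each bar. DOCA–HS after replicate 2 was the highest library for Agtrap and the lowest for Atp6ap2 and Ece1, on 9, 2 and 1 reads.

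The ratio of these genes within a library does not depend on how libraries are scaled. Of the reads on Agtrap and Ece1 together, Agtrap held 21.8% and 27.5% in the AngII libraries before CMG, 26.1% and 18.4% after, and 28.6% and 29.2% in the DOCA–HS libraries before CMG. After CMG in the DOCA–HS model it held 18.5% of 108 reads in replicate 1 and 9 of 10 reads in replicate 2 (95% exact binomial interval of the share 55.5% to 99.7%). The intervals of the other 7 libraries ended at 43.9% or lower, below that of DOCA–HS after replicate 2. Of the reads on Atp6ap2 and Ece1 together, Atp6ap2 held 34.1% to 52.7% in those 7 libraries and 2 of 3 reads (9.43% to 99.2%) in the last.

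**Figure D2:**
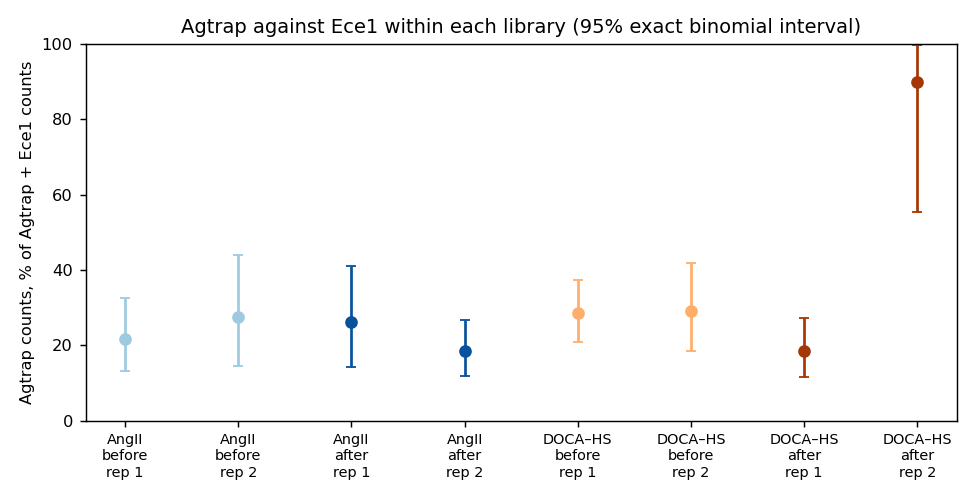
Share of Agtrap in the summed reads of Agtrap and Ece1 (y axis, percent) in each library (x axis), with 95% exact binomial intervals as bars. The share was 18.4% to 29.2% in 7 libraries, and 9 of 10 reads in DOCA–HS after replicate 2.

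That library also differed in its blood cell markers. The summed level of the 9 erythroid markers was 51921 CPM there and 14341 to 36819 CPM in the other 7, and the 7 platelet markers summed to 1298 CPM against 69.5 to 765.9 CPM. B cell markers, by contrast, summed to 45.0 CPM there, the lowest of the 8, against 60.4 to 133.4 CPM, and monocyte markers to 396.3 CPM against 404.0 to 684.3 CPM. Neutrophil markers summed to 503.8 CPM, the highest of the 8, against 158.6 to 459.5 CPM. Within the range of the rest lay T cell markers, at 171.4 CPM against 129.5 to 222.6 CPM, and cytotoxic lymphocyte markers, at 73.8 CPM against 38.5 to 89.99 CPM. These sums used TMM scaling, and some ranks depended on it. Scaled to counts outside hemoglobin, neutrophil markers summed to 1100 CPM there, below 1826 CPM in DOCA–HS before replicate 2. Platelet markers summed to 2834 CPM, below 3241 CPM in DOCA–HS after replicate 1. Erythroid markers, at 113374 CPM, stayed the highest of the 8. B cell markers, at 98.2 CPM, and monocyte markers, at 865.3 CPM, stayed the lowest. The part of all these differences, and of the depth, in the values of the 3 genes was not tested. In bulk blood, fewer cells of a type and less RNA per cell cannot be told apart.

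In the AngII model, the comparison of after with before CMG addressed whether the blood messages of these genes changed over the CMG treatment. Agtrap, Atp6ap2 and Ece1 passed the filter on low counts and were tested, and none passed the test, in which the lowest adjusted p of all genes was 0.474. The log2 fold change of Ece1, after over before, was 0.38 (SE 0.29, adjusted p = 0.818 by edgeR's quasi-likelihood test, 95% interval -0.30 to 1.05). Both libraries after CMG lay above both before it for Ece1, under TMM, total-count and outside-hemoglobin scaling. Separation in one direction or the other under TMM was seen in 39.2% of 7994 genes, a share not computed for the other 2 scalings. Under those 2, Agtrap was separated upward as well, and the median of all genes was 0.36 and 0.38. Under TMM, Agtrap differed by 0.15 (SE 0.47, adjusted p = 0.944, interval -0.93 to 1.24) and Atp6ap2 by 0.041 (SE 0.40, adjusted p = 0.982, interval -0.89 to 0.97) on the log2 scale. Across all genes, edgeR called 0 of 7201 genes (0%) at an adjusted p under 0.05, with 479 genes (6.65%) at an unadjusted p up to 0.05, where DESeq2 called 3 and limma-voom 0. Without AngII after replicate 1, edgeR called 281 genes and 0 of the 3. By the criterion of the study, a log2 fold change beyond 1.5 with an unadjusted p up to 0.05, 0 of the 3 genes and 1.24% of all genes passed. Over the same libraries all 8 tested cytotoxic lymphocyte markers lay above 0, with a median log2 fold change of 1.18 and 5 at an unadjusted p up to 0.05, and 6 of 8 monocyte markers did, with a median of 0.47. Of the endothelium markers 2 of 3 lay above 0, with a median of 0.54, and the list summed to 4.005 and 2.19 CPM before CMG and 6.23 and 6.58 CPM after. Erythroid markers lay above 0 in 0 of 9 and T cell markers in 3 of 10, with medians of -0.44 and -0.40. The part of these cell types in the values was not tested. For Atp6ap2 single libraries set the direction, with values of -0.39 without AngII before replicate 2 and 0.73 without AngII before replicate 1. The same held for Agtrap, at -0.11 without AngII before replicate 1 and -0.037 without AngII after replicate 1. Without replicate 2 of either group Agtrap was 0.32.

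In the DOCA–HS model, none of the 3 genes passed the test of after against before CMG, in which the lowest adjusted p of all genes was 0.996, and the intervals were wide. Agtrap differed by 0.44 on the log2 scale (SE 0.71, interval -1.17 to 2.06), Atp6ap2 by -0.22 (SE 0.55, interval -1.47 to 1.03) and Ece1 by -0.044 (SE 0.64, interval -1.51 to 1.42), each with an adjusted p of 0.996 by edgeR. No gene of 7720 was called (0%) at an adjusted p under 0.05 by edgeR, DESeq2 or limma-voom, with 247 (3.2%) at an unadjusted p up to 0.05 in edgeR (1173 genes were called at an adjusted p under 0.05 by edgeR without DOCA–HS after replicate 1, and 119 without replicate 2), and 2.03% met the study's criterion against 0 of the 3 genes. The 6 tested platelet markers all lay above 0 (median 1.33) and the 9 B cell markers all below (median -0.89), and their part in the values was not tested. The direction rested on DOCA–HS after replicate 2. Without it the differences were -0.37, 0.18 and 0.46 for Agtrap, Atp6ap2 and Ece1, opposite in sign for all 3. When replicate 1 was left out and that library stood alone, they were 1.65, -1.78 and -2.79, and the median of all genes moved to -0.37.

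Averaged over the models, after minus before CMG was 0.29 (SE 0.42) for Agtrap, -0.070 (SE 0.33) for Atp6ap2 and 0.19 (SE 0.35) for Ece1 on the log2 scale, each with an adjusted p of 1.00 by edgeR, and 0 of the 3 met either threshold. Across all 7994 genes 0% passed at an adjusted p under 0.05, 3.9% (312 genes) had an unadjusted p up to 0.05 and 0.325% met the study's criterion. DESeq2 called 8 genes and limma-voom 1. Without DOCA–HS after replicate 2, the average was 0.40 for Ece1 (adjusted p = 0.540 by edgeR), 0.078 for Atp6ap2 and -0.096 for Agtrap. These averages share their libraries with the comparisons within each model.

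The change over CMG in the DOCA–HS model minus that in the AngII model was 0.31 for Agtrap (SE 0.88, adjusted p = 0.956), -0.22 for Atp6ap2 (SE 0.69, adjusted p = 0.963) and -0.36 for Ece1 (SE 0.72, adjusted p = 0.934) in edgeR's interaction contrast. None passed, against 0% of 7994 genes at an adjusted p under 0.05, 3.74% (299 genes) at an unadjusted p up to 0.05 and 3.18% by the study's criterion, with 1 gene called by DESeq2 and 0 by limma-voom. The intervals, at their widest -1.64 to 2.26 for Agtrap, left room for large differences between the models. Each sign was opposite without DOCA–HS after replicate 2, at -0.51, 0.15 and 0.097. When replicate 1 was left out instead, the values were 1.52, -1.80 and -3.15, and the median of all genes was -0.51.

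**Figure D3:**
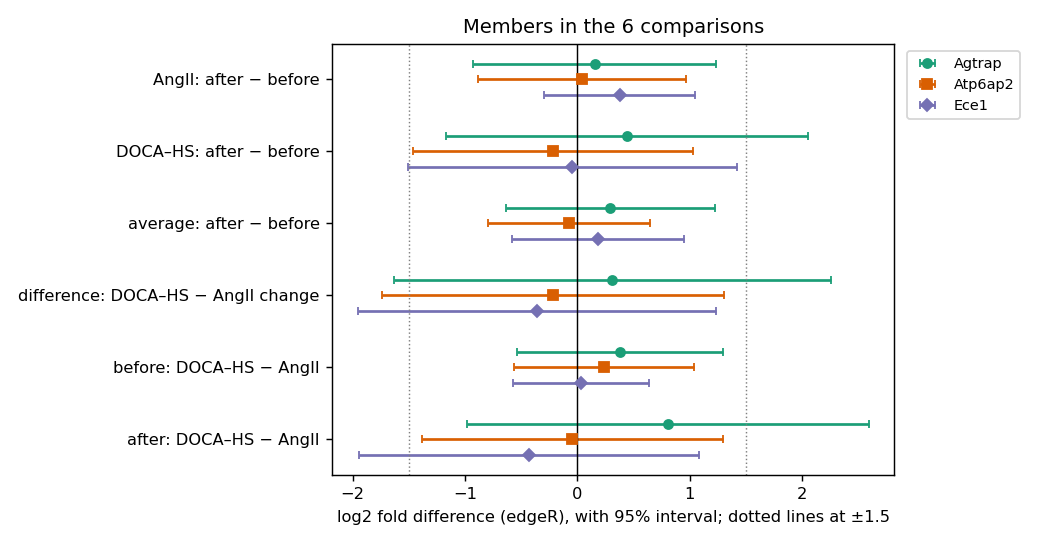
The log2 fold difference by edgeR (x axis) of Agtrap, Atp6ap2 and Ece1 in the 6 comparisons (y axis), with 95% intervals as bars and dotted lines at -1.5 and 1.5. Every interval includes 0, and the widest are those of the DOCA–HS change, the difference between the models and the models after CMG.

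Between the models before CMG, Agtrap was 0.38 higher in the DOCA–HS libraries on the log2 scale (SE 0.41, adjusted p = 0.731), Atp6ap2 0.24 (SE 0.36, adjusted p = 0.816) and Ece1 0.035 (SE 0.27, adjusted p = 0.969), none of which passed edgeR's test. For Ece1 the interval, -0.57 to 0.64, was the narrowest of the 6 comparisons. Both DOCA–HS libraries lay above both AngII libraries for Agtrap under each scaling, and 45.4% of 7994 genes were separated in one direction or the other under TMM. Under total-count and outside-hemoglobin scaling, Atp6ap2 and Ece1 were separated in the same way. The median of all genes was then 0.84 and 0.76, and the share of all genes separated was not computed for those scalings. Across 7470 genes, 0% passed at an adjusted p under 0.05, 14.5% (1080 genes) had an unadjusted p up to 0.05 and 0.79% met the study's criterion, with 0 of the 3 genes in each, while DESeq2 called 241 genes and limma-voom 0. Scaling moved these values. With total counts outside hemoglobin, the 3 differences became 1.09, 0.94 and 0.75, with unadjusted p-values of 0.0395, 0.0419 and 0.0488 and adjusted p-values of 0.102, 0.105 and 0.113 by edgeR. An unadjusted p up to 0.05 was then reached by 3248 of the 7470 genes. The median of all genes was 0.76 under that scaling, against 0.056 under TMM, and relative to this median the 3 genes stood at 0.32, 0.18 and -0.018, against 0.33, 0.18 and -0.020 under TMM.

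After CMG, DOCA–HS minus AngII was 0.81 for Agtrap (SE 0.80, interval -0.98 to 2.60), -0.043 for Atp6ap2 (SE 0.60, interval -1.38 to 1.30) and -0.43 for Ece1 (SE 0.67, interval -1.95 to 1.09), each with an adjusted p of 0.999 by edgeR. No gene of 7364 was called (0%) at an adjusted p under 0.05 by edgeR, DESeq2 or limma-voom, 0.801% (59 genes) had an unadjusted p up to 0.05 and 0.665% met the study's criterion, and 0 of the 3 genes did. Without DOCA–HS after replicate 2 the values were -0.13, 0.40 and 0.14, each of the opposite sign. With replicate 1 left out they were 1.91, -1.53 and -3.08, and the median of all genes was -0.30.

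The wider angiotensin system was counted unevenly. Of 16 genes for angiotensinogen and the peptidases that cut angiotensins, 2 had no count in any library, namely Agt (angiotensinogen) and Ace, and 7 never exceeded 3 counts in a library. Of 10 receptors and partners, the 5 receptors Agtr1a, Agtr1b, Agtr2, Mas1 and Mrgprd had no count, while Agtrap, Atp6ap2, Arrb1, Arrb2 and Rgs2 were counted, among them the arrestins that bind activated receptors and Rgs2, which dampens Gq signalling. The counted peptidases included Ctsd (cathepsin D), Ctsa (cathepsin A), Anpep (aminopeptidase N, which removes the first residue of angiotensin III), Prep, Nln and Thop1. In the AngII model after against before CMG, 8 peptidases were tested, 6 lay above 0 and the median log2 fold change was 0.35, against -0.013 over all genes, with 0 at an unadjusted p up to 0.05 against 6.65% of all genes. In the DOCA–HS model 5 of 9 lay above 0, with a median of 0.12 against -0.036 over all genes and 0 at that p against 3.2% of all genes. The 5 tested receptor partners had medians of 0.041 (AngII) and -0.021 (DOCA–HS), with 0 at that p against the same shares of all genes.

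**Figure D4:**
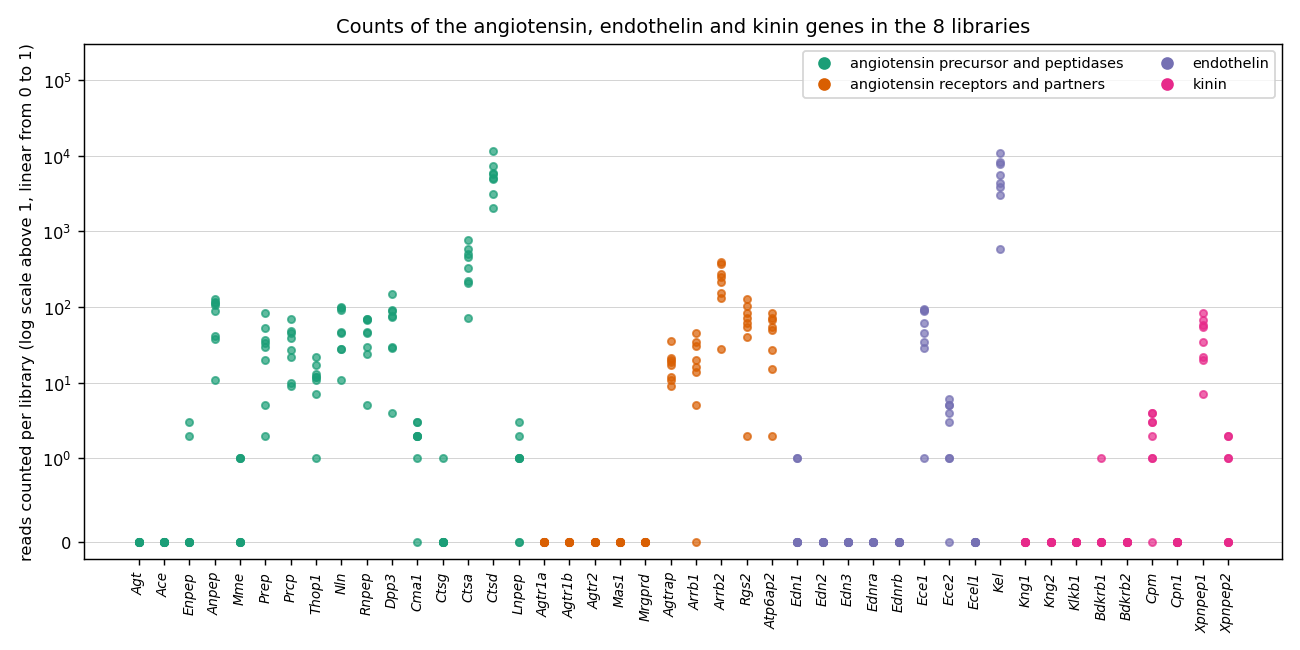
Reads counted per library (y axis, logarithmic above 1 and linear from 0 to 1) for the angiotensin, endothelin and kinin genes (x axis), with 1 point per library and colours for the gene lists. The counts are not divided by transcript length, so heights are not compared between genes, and Agt, Ace and the 5 angiotensin receptors lie at 0 in all 8 libraries.

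The endothelin genes showed a similar split. Edn2, Edn3, the receptors Ednra and Ednrb, and Ecel1 had no count, Edn1 had 2 reads in all and Ece2 had 25. Besides Ece1, only Kel was tested among the 9, the gene of the Kell blood group metalloprotease of red cells, which cuts big endothelin-3. Kel is described here after its values were seen. Before CMG its level was 846.8 and 648.0 CPM in the AngII libraries and 432.8 and 321.8 CPM in the DOCA–HS libraries, with no overlap, as for 45.4% of 7994 genes. The log2 difference was -0.98 (SE 0.29, adjusted p = 0.191 by edgeR). It passed with DESeq2 (adjusted p = 0.0278) and with no filter on low counts, and over the 12 alternatives the adjusted p ranged up to 0.992. All 9 erythroid markers also lay below 0 in this comparison, with a median of -1.02 and 6 of them at an unadjusted p up to 0.05, where 10.3% of all genes were lower at that p, and their part in the Kel value was not tested. Under scaling to total counts the Kel difference was -0.16. The median of all genes was 0.84 under that scaling, against 0.056 under TMM, so Kel lay below it under both. Ece1, in the same comparison, differed by 0.035 under TMM.

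Kinins are cleaved by the same converting enzyme, and of 9 kinin genes Kng1, Kng2, Klkb1, Bdkrb2 and Cpn1 had no count. Only Xpnpep1, an aminopeptidase that cleaves bradykinin, was tested. Lnpep belongs to the M1 family of zinc aminopeptidases, of which 10 genes were in the table and 6 were tested. All 6 lay above 0 in the AngII model (median 0.26) and 3 of 6 in the DOCA–HS model (median 0.043), against medians over all genes of -0.013 and -0.036. None of the 6 had an unadjusted p up to 0.05 in either, against 6.65% and 3.2% of all genes.

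Atp6ap2 is an accessory subunit of the V-ATPase, and the 17 pump genes were all counted and tested. In the AngII model 8 of 17 lay above 0 (median -0.088), and in the DOCA–HS model 12 of 17 (median 0.32), against medians over all genes of -0.013 and -0.036. Of the genes in the angiotensin, endothelin, kinin, V-ATPase and aminopeptidase lists, Atp6v1f, a peripheral subunit of the pump, was the only one to meet the study's criterion in any of the 6 comparisons. Atp6v1f met it in the DOCA–HS change, where 2.03% of 7720 genes did, and in the difference between the models, where 3.18% of 7994 genes did. Its level was 15.6 and 19.5 CPM before CMG in the DOCA–HS model and 29.6 and 79.4 CPM after, the highest value being again DOCA–HS after replicate 2. The log2 fold change was 1.62 (SE 0.58, adjusted p = 0.996 by edgeR), and over 13 alternatives it ranged from 0.43 to 2.18 with adjusted p-values of 0.00147 to 1.00, the lowest with DOCA–HS after replicate 1 left out. Without DOCA–HS after replicate 2 it was 0.77. In the AngII model Atp6v1f had 24.4 and 46.1 CPM before CMG and 31.6 and 26.5 CPM after, and the difference between the models was 1.88 (SE 0.73, adjusted p = 0.881 by edgeR). Atp6ap2 itself differed by -0.22 in the DOCA–HS model. Between the models before CMG, 4 of the 17 pump genes lay lower in the DOCA–HS libraries at an unadjusted p up to 0.05 and 0 higher, where 10.3% of all genes were lower and 4.16% higher at that p.

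The patterns of the 3 genes over the 8 libraries were then compared, as log2 CPM centred on the mean of each gene, by the root mean square difference. Atp6ap2 and Ece1 were 0.51 apart, Agtrap and Atp6ap2 1.16, and Agtrap and Ece1 1.49. Without DOCA–HS after replicate 2 the same distances were 0.37, 0.43 and 0.33, in another order. Among 2624 genes with 10 or more counts in every library, the nearest to Agtrap were Pik3ca (0.11), Ppig, Crip1, Nop10 and Fkbp1a (0.15), against a median distance of 0.59. The nearest to Atp6ap2 were Actr2 (0.19), Cast, Syk, Actg1 and Itgb2 (0.25), with a median of 0.85. For Ece1 they were Sipa1 (0.22), Jak1, Dgka, Leng8 and Cd53 (0.26), with a median of 1.13. Among the 7993 genes past the filter of the tests, chosen as an alternative after the data were seen, the 5 nearest to Agtrap were unchanged, while those of Atp6ap2 became Sptlc2, Golga7, Taok3, Pwwp2a and Mtpap, and those of Ece1 became Serpinb9, Vps52, Rbl2, Rfx1 and Nif3l1. All these nearest genes were found over the 8 libraries, DOCA–HS after replicate 2 included, and were not searched for without it.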

How the data were processed

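Whole blood RNA of 8 rat libraries was sequenced by the authors, aligned to rn6 with HISAT2 after FastQC and counted per gene with HTSeq by strand. The authors deposited raw counts, with no normalization, and state that hemoglobin annotations were removed, yet Hbb and LOC100134871 remain in the table. Authors' fold changes and p-values were not used. 

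Libraries were grouped by their labels. Genes passing filterByExpr were tested with edgeR's quasi-likelihood test (edgeR 4.0.16, R 4.3.3) after TMM scaling, with Benjamini-Hochberg adjustment over all genes tested. SE is the absolute log2 fold change over the root of F. Within-model and between-model comparisons used 4 libraries each, and the average and the difference all 8. DESeq2 1.42.0, limma-voom (limma 3.58.1), other scalings and filters, each library left out, 1 fit of all 8 libraries and a replicate block were alternatives. The script was tested on simulated data. With 2 libraries a group, an exact permutation test cannot go below p = 0.333, so it was not used. Per the labels, blood was taken by cardiac puncture, while the study's methods describe sampling the same rats at several times, so whether libraries before and after CMG share rats is unclear. Whether replicates are separate rats is not stated, so p-values measure only the spread between these samples, which may be technical. Within each group the replicate libraries differed by more than counting noise.

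The 5 genes and the gene lists were chosen with earlier results of these data known. The rule for names took the 5 genes, genes of the angiotensin, endothelin, kinin, V-ATPase and aminopeptidase lists past the study's criterion or an adjusted p under 0.05 or without a count, and for each tested gene the 5 of most similar pattern (log2 CPM, prior count 2). Other genes of these lists that are named were chosen after their values were seen. Some genes of the angiotensin list are not reported here. Promoters came from RefSeq. Intervals and limits (3 counts) cover counting error only. Of the 17446 genes, 5754 had no count, and 15493 names matched the GRCr8 gene table. The marker lists covered monocytes, neutrophils, T cells, B cells, cytotoxic lymphocytes, red cells, platelets, endothelium and heart muscle. Transcript lengths were not used here, so levels were not compared between genes.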

Additional observations from a re-analysis of the deposited data

How the results depend on the processing

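Each difference of Agtrap, Atp6ap2 and Ece1 was recomputed under every alternative, 231 values in all. An adjusted p under 0.05 was reached 0 times, 203 values kept their direction and 28 took the other. The lowest adjusted p outside the block was 0.0561, and the cause of the changes of direction was not tested. Low counts limit these genes, with 9, 2 and 1 reads in the shallowest library, and 2 libraries a group limit every interval.

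With each library left out in turn, the log2 differences after over before CMG in the AngII model ranged from -0.11 to 0.32 for Agtrap, from -0.39 to 0.73 for Atp6ap2 and from 0.19 to 0.47 for Ece1. The ranges in the DOCA–HS model were -0.37 to 1.65, -1.78 to 0.18 and -2.79 to 0.46. For the average they were -0.0956 to 0.69, -0.32 to 0.14 and -0.14 to 0.40. Those for the difference between the models were -0.51 to 1.52, -1.80 to 0.16 and -3.15 to 0.0973. Between the models they were 0.10 to 0.57, -0.14 to 0.93 and -0.0221 to 0.0352 before CMG, and -0.13 to 1.91, -1.53 to 0.40 and -3.08 to 0.14 after. A fit without 1 library leaves a group with 1, whose spread is assumed to be that of the others. Outside the fits that left out DOCA–HS after replicate 1, 0 of the 3 genes met the study's criterion in any comparison.

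Other alternatives turned 8 differences. Scaling to total counts gave Agtrap -0.47 in the DOCA–HS model and -0.98 for the difference between the models. For that difference, scaling outside hemoglobin gave -0.44 and limma-voom -0.0882. The median of all genes was -0.76 and -1.21 under total counts, and -0.89 outside hemoglobin. Relative to this median, Agtrap stood at 0.29, 0.23 and 0.44. Under TMM it stood at 0.48 in the DOCA–HS model and 0.43 for the difference. Between the models, Ece1 before CMG was -0.000406 by DESeq2 and -0.000143 with its size factors in edgeR, and Atp6ap2 after CMG was 0.0756 by limma-voom and 0.0403 with all 8 libraries in 1 fit. Without the replicate number as a block, the main design, no pairing was assumed, as labels and methods tie no number to a rat. With the replicate block the values of Agtrap, Atp6ap2 and Ece1 were 0.15, 0.14 and 0.36 for AngII, 0.50, -0.39 and -0.37 for DOCA–HS and 0.29, -0.0431 and 0.10 for the average, with no gene of the 3 called. Over all genes the block moved the calls at an adjusted p under 0.05 in the AngII model from 0 to 165. Deviations of equal numbers correlated at 0.415 (AngII) and 0.309 (DOCA–HS), where 2 pairs give 1 value. For the between-model comparisons no paired analysis was possible because the models are different rats.

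The genes that met the study's criterion were counted among those tested, whose number differed between the alternatives. Over the alternatives that left no library out, they ranged from 22 to 238 for AngII (89 as reported) and from 9 to 268 for DOCA–HS (157). For the average they ranged from 2 to 120 (26) and for the difference from 32 to 577 (254). Between the models they ranged from 18 to 559 before (59) and from 7 to 175 after CMG (49). At an adjusted p under 0.05, the 0 calls as reported reached at most 281 genes for AngII (without AngII after replicate 1), 1173 for DOCA–HS (without DOCA–HS after replicate 1, and 119 without replicate 2), 22 for the average (no filter), 147 for the difference, 320 before CMG (scaling outside hemoglobin) and 196 after. With DOCA–HS after replicate 1 left out, both kinds of count in the DOCA–HS model, the difference and the models after CMG were the highest of each. The filter of 10 counts in every library kept none of the 3 genes in the comparisons that use DOCA–HS after replicate 2, so it gave no value there.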
